A study of Mus musculus with 12 samples.

Results

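The genes described here are 10 genes grouped as drivers of lipid peroxidation in ferroptosis. They were taken by symbol from the 34745 genes of the deposited table: Acsl1, Acsl3, Acsl4, Acsl5, Lpcat3, Por, Cyb5r1, Alox5, Pebp1 and Sat1. They belong to the list by their known roles, which for Acsl3 include a protective one. The rule that selects them sets no threshold on a value. RNA was measured by poly(A) RNA-seq in MLE-12 cells, a mouse lung epithelial line with features of alveolar type II cells, in 12 libraries, 3 per group. In the LPS group the cells received 100 ng/mL lipopolysaccharide in 21% O2, and in the LPS + M2-Exo group they also received 10 µg/mL of M2-Exo, exosomes from MH-S alveolar macrophages polarised towards M2 with IL-4. In the Hyp group the cells were kept in 85% O2 without LPS, and in the Hyp + M2-Exo group the same exosomes were added at 10 µg/mL. All groups were treated for 24 h. Each M2-Exo group was compared with the injured cells of its own model, and no library of uninjured cells was analysed here. Nothing in the labels says that the 3 libraries of a group came from separate cultures, so the p-values measure the spread between these libraries, which may be technical.

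Ferroptosis is an iron-dependent cell death in which polyunsaturated phospholipids of membranes are oxidised faster than they are repaired. ACSL4 activates arachidonic and adrenic acid to acyl-CoA, and LPCAT3 inserts them into phospholipids, while ACSL1, ACSL3 and ACSL5 activate other or overlapping fatty acids, and oleate activated by ACSL3 is known to protect membranes. POR and CYB5R1 pass electrons from NAD(P)H to oxygen and so supply hydrogen peroxide, ALOX5 is a lipoxygenase, PEBP1 is a scaffold that directs 15-lipoxygenase to phospholipids, and SAT1, which acetylates spermidine and spermine, is a p53 target linked to lipoxygenase activity. Alveolar type II cells make surfactant phospholipids, so that acyl-CoA synthetases and lysophospholipid acyltransferases also serve a secretory task there.

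Total counts ranged from 16021833 to 24074616 per library, and the Hyp and Hyp + M2-Exo libraries, at 20231632 to 24074616, were all deeper than the LPS and LPS + M2-Exo libraries, at 16021833 to 19185116. The epithelial label was only partly borne out by markers. Nkx2-1, Abca3 and Krt8 were at 35.2 to 203 CPM (counts scaled by TMM to a common library total), Sftpc was found at 240 to 433 counts in each library, while Epcam was at 6 to 21 counts, Krt18 at 0 to 4 and Sftpa1 and Sftpd at 0 or 1. The 13 epithelial markers summed to 552 to 579 CPM in the libraries of both LPS groups and to 329 to 359 CPM in those of both Hyp groups. Sftpb went against this sum, at 1.26 to 1.77 CPM in both LPS groups and 4.11 to 5.61 CPM in both Hyp groups. RNA of macrophage marker genes, among them Csf1r, Lyz2, Adgre1 and Ptprc, was present in every library. The 14 macrophage markers summed to 527 to 578 CPM in LPS, 420 to 468 CPM in LPS + M2-Exo, 131 to 135 CPM in Hyp and 101 to 149 CPM in Hyp + M2-Exo. With M2-Exo, 0 of the 12 tested in each model had an adjusted p under 0.05 by edgeR. Arg1 had at most 3 counts in any library, Mrc1 had 9 to 25, and Marco was at 0 or 1 count in Hyp and 0 in Hyp + M2-Exo. Itgax went against the sum, at 0 to 3 counts in both LPS groups and 12 to 33 in both Hyp groups. In such bulk samples, fewer cells of a type and less RNA per cell cannot be told apart.

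No member passed the test with M2-Exo by edgeR in either model. In Hyp + M2-Exo against Hyp, 0 of the 9 members that could be tested passed an adjusted p under 0.05 by edgeR's quasi-likelihood test, against 0.101% of all 13815 genes tested, and 0 passed by DESeq2. In LPS + M2-Exo against LPS the numbers were 0 of 9 by both tools, against 0.187% of 13353 genes by edgeR. At an unadjusted p under 0.05 there were 2 members in the Hyp libraries (Acsl3 and Lpcat3), where 8.48% of all genes met that limit, and 4 in the LPS libraries (Acsl3, Acsl4, Pebp1 and Sat1), where 11.1% did. Acsl3 had the largest difference of a member in the Hyp libraries (log2 fold change 0.20), and Sat1 had that of the LPS libraries (-0.24). The median of the absolute log2 fold changes was 0.061 over the members and 0.075 over all genes for the Hyp libraries, against 0.072 and 0.073 for the LPS libraries.

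**Figure D1:**
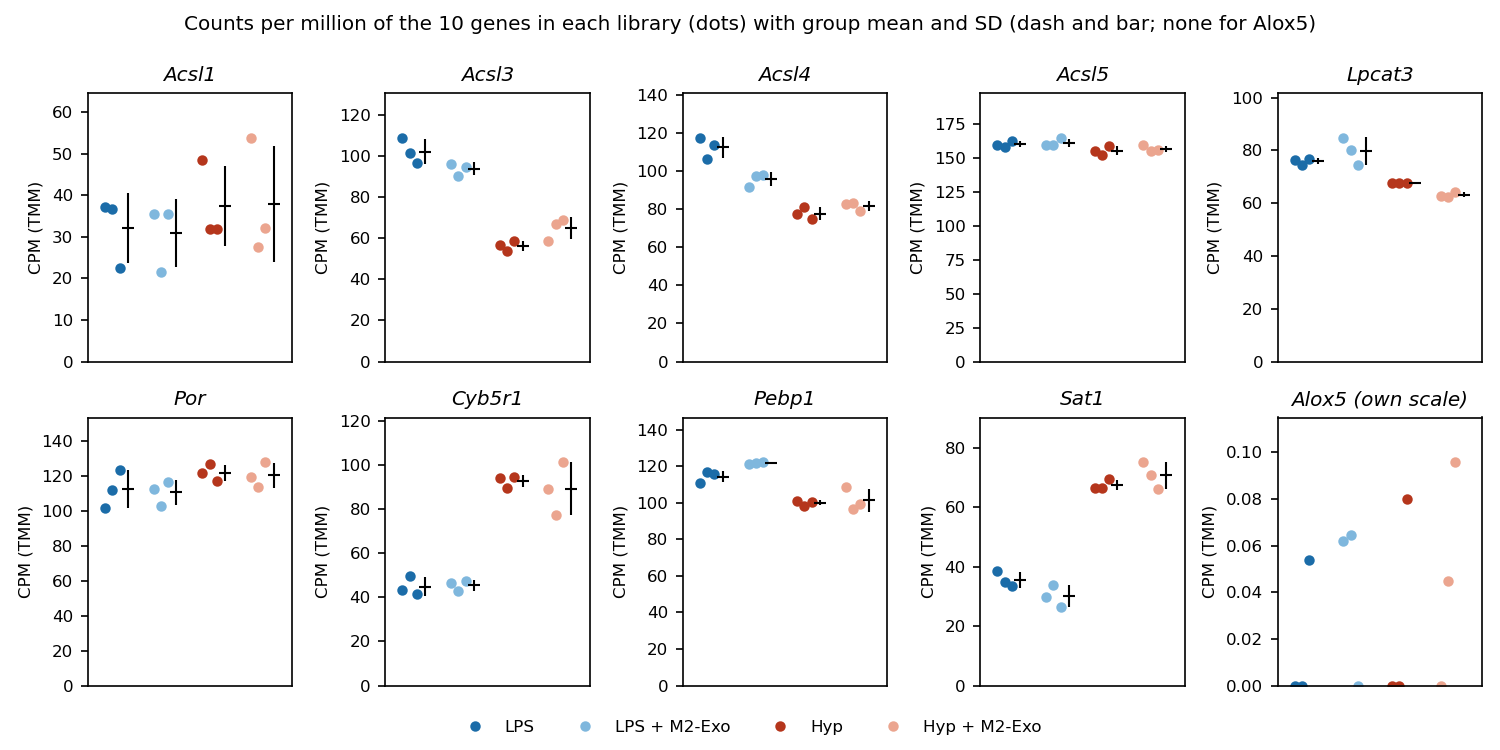
CPM after TMM scaling (y axis, from 0, own scale per gene) of the 10 genes in each of the 12 libraries (dots, coloured by group), with the group mean and SD beside them except for Alox5. Cyb5r1 and Sat1 lie higher in both Hyp groups than in both LPS groups, Acsl3 and Acsl4 lie lower, Acsl1 scatters within groups, and Alox5 never exceeds 2 counts.

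More members passed between the models. In Hyp against LPS, 6 of 9 members passed the test, with Cyb5r1 and Sat1 higher in Hyp and Acsl3, Acsl4, Pebp1 and Lpcat3 lower, while Acsl1, Acsl5 and Por did not pass. In Hyp + M2-Exo against LPS + M2-Exo the same 6 genes passed in the same directions. These comparisons set the models against each other at a large distance, since 75.8% of all genes passed without M2-Exo (38% higher and 37.8% lower in Hyp) and 73.7% with it (37.1% and 36.5%), so that 6 of 9 is no more than the background. The median member differed less than the median gene, with a median absolute log2 fold change of 0.22 against 0.51 over all genes in Hyp against LPS, and 0.29 against 0.52 with M2-Exo. Oxygen, LPS, depth and any batch in which the libraries of a model were made cannot be told apart in these comparisons. Macrophage markers moved with them, 11 of 13 tested being lower and 1 higher in Hyp, and 8 of 9 epithelial markers tested were lower and 1 higher. The part of these cell type differences in the values below was not tested.

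**Figure D2:**
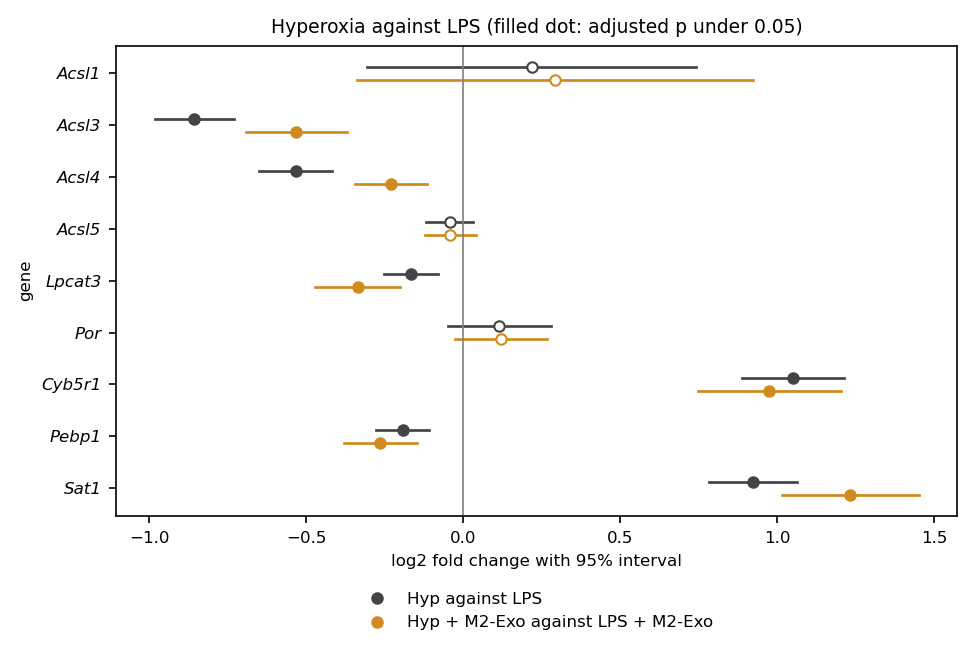
Log2 fold changes of the 9 tested genes (y axis) in Hyp against LPS and in Hyp + M2-Exo against LPS + M2-Exo (x axis, dot with its 95% interval), filled where the adjusted p was under 0.05. Cyb5r1 and Sat1 lie near 1 on the log2 scale, Acsl3, Acsl4, Lpcat3 and Pebp1 lie below 0, and the intervals of Acsl1, Acsl5 and Por cross 0.

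Acsl4 lies at chrX:142317993-142390535 on the minus strand (GRCm38, ENSMUSG00000031278) and no other gene of the table overlaps it. Its level was 117, 106 and 114 CPM in the LPS libraries, 91.3, 97.2 and 98.1 CPM in LPS + M2-Exo, 77.5, 80.9 and 74.5 CPM in Hyp, and 82.6, 83.4 and 78.7 CPM in Hyp + M2-Exo. All 3 LPS libraries lay above all 3 LPS + M2-Exo libraries, whereas the Hyp and Hyp + M2-Exo libraries overlapped. The log2 fold change in LPS + M2-Exo against LPS was -0.23 (SE 0.050, 95% interval -0.35 to -0.12), with an adjusted p of 0.190 by edgeR, the 123rd smallest p of all genes tested, so that the difference did not pass. By DESeq2 the adjusted p was 0.0518, and over all the alternatives, each library left out in turn included, it ran from 0.0518 to 0.402, the highest without LPS replicate 1. The 12 macrophage markers tested had a median log2 fold change of -0.31 there, against 0.0027 over all genes, and 0 of the 12 passed by edgeR. Their part in the value of Acsl4 was not tested. For Acsl4 the Hyp libraries gave 0.066 with M2-Exo (95% interval -0.045 to 0.18, adjusted p = 0.696). Between the models, Acsl4 was lower in Hyp than in LPS by a log2 fold change of -0.53 (SE 0.050, adjusted p = 2.45e-05), and by -0.23 (SE 0.050, adjusted p = 0.00321) where M2-Exo was present.

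Acsl3, at chr1:78657825-78707743 on the plus strand (ENSMUSG00000032883), was at 109, 101 and 96.7 CPM in LPS, 96.1, 90.2 and 94.9 CPM in LPS + M2-Exo, 56.5, 54.0 and 58.8 CPM in Hyp, and 58.8, 66.8 and 69.1 CPM in Hyp + M2-Exo. Of the members it had the most negative log2 fold change in Hyp against LPS, -0.86 (SE 0.055, adjusted p = 2.69e-06). Where M2-Exo was present in both models, the value was -0.53 (SE 0.069, adjusted p = 0.000175). Its M2-Exo values had opposite signs in the models, 0.20 in the Hyp libraries (95% interval 0.029 to 0.36, adjusted p = 0.567) and -0.13 in the LPS libraries (95% interval -0.25 to -0.0016, adjusted p = 0.443). Neither passed the test. Acsl3 overlaps Utp14b on the same strand, and 3.59% of its 50-base stretches also occur in Utp14b transcripts, so that the counting of shared reads could affect its value.

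Acsl5, at chr19:55253369-55296627 on the plus strand (ENSMUSG00000024981), was the steadiest of the synthetases. Its levels were 158 to 163 CPM in LPS, 160 to 165 CPM in LPS + M2-Exo, 152 to 159 CPM in Hyp and 155 to 160 CPM in Hyp + M2-Exo. Adding M2-Exo gave a log2 fold change of 0.0078 in the Hyp libraries (95% interval -0.068 to 0.084) and 0.0092 in the LPS libraries (95% interval -0.067 to 0.085), so that changes beyond about 0.085 in either direction lie outside both intervals. Hyp against LPS gave -0.044 (adjusted p = 0.242) and, with M2-Exo, -0.041 (adjusted p = 0.315). Both signs turn to 0.046 and 0.050 when libraries are scaled by total count alone. Of the 50-base stretches of Acsl5, 4.78% also occur in transcripts of other genes.

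Acsl1, at chr8:46471041-46536051 on the plus strand (ENSMUSG00000018796), scattered within every group. It was at 37.3, 36.7 and 22.5 CPM in LPS, 35.6, 21.5 and 35.6 CPM in LPS + M2-Exo, 48.6, 31.8 and 31.8 CPM in Hyp, and 53.8, 27.7 and 32.2 CPM in Hyp + M2-Exo. In each group 1 library lay apart, low in both LPS groups and high in both Hyp groups. The coefficient of variation was 25.9% to 36.9% for Acsl1 and 0.118% to 13.4% for the other 8 members tested. Its log2 fold changes of 0.013 (95% interval -0.59 to 0.62) in Hyp + M2-Exo against Hyp and -0.056 (95% interval -0.61 to 0.50) in LPS + M2-Exo against LPS have the widest intervals of the members. Of its 50-base stretches, 9.23% also occur in transcripts of other genes.

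Per gene length, Acsl5 led the family and Acsl1 was lowest of the 4 members in every group. On the authors' FPKM scale Acsl5 made up 58.0% ± 1.38 (SD, n = 3) of the sum of Acsl1, Acsl3, Acsl4, Acsl5 and Acsl6 in LPS, 60.9% ± 0.493 in LPS + M2-Exo, 66.3% ± 0.861 in Hyp and 64.9% ± 0.0785 in Hyp + M2-Exo. Acsl4 made up 19.3% to 20.4% in the LPS libraries, 17.1% to 18.4% in LPS + M2-Exo, 15.5% to 17.3% in Hyp and 16.1% to 17.2% in Hyp + M2-Exo, so that its share was highest in LPS. The length behind these FPKM counted overlapping exons repeatedly for Acsl3 and Acsl4. For Acsl5 it was 3150 bases, shorter than the merged exons of GENCODE M21 (4864 bases), and for Acsl1 it was 12088 bases against 10483, and the ends of both genes in the table differ from those in GENCODE M21. With RPKM computed here on merged exons, the share of Acsl5 was 40.3% in LPS and 49.4% in Hyp, and that of Acsl4 was 25.4% and 22.2%. The ratio of Acsl4 to Acsl3 was higher in every Hyp library (1.28 to 1.52 in FPKM) than in every LPS library (1.06 to 1.19), and lay at 0.961 to 1.09 in LPS + M2-Exo and 1.15 to 1.42 in Hyp + M2-Exo. On merged exons the mean ratio was 0.887 ± 0.0541 in LPS and 1.11 ± 0.0936 in Hyp (SD, n = 3). Which of the 2 genes is the more abundant in LPS therefore depends on the length used. A change of length multiplies the ratio of every library by the same factor, so that the order of the groups could not change.

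**Figure D3:**
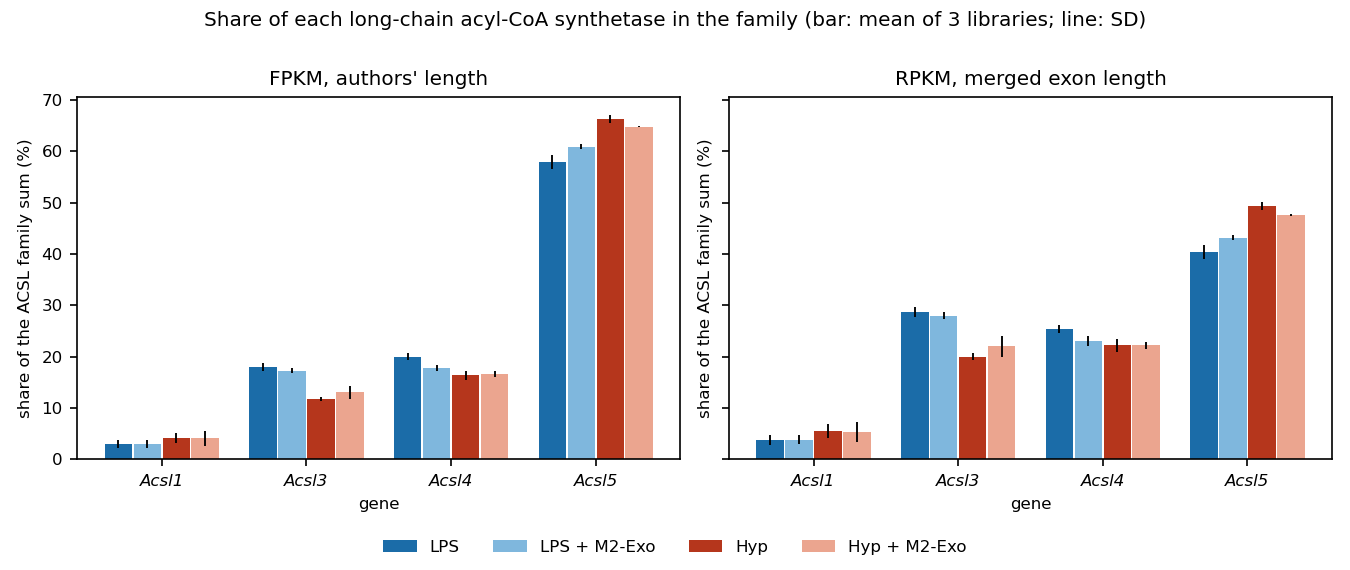
Share of Acsl1, Acsl3, Acsl4 and Acsl5 in the summed level of the 5 ACSL genes (y axis, percent; Acsl6, not drawn, holds the rest), as the mean of 3 libraries with its SD, on the authors' FPKM (left) and on RPKM over merged exons (right). Acsl5 is the largest in all groups, its bars are higher in both Hyp groups than in both LPS groups, and those of Acsl3 are lower.

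Lpcat3 lies at chr6:124663027-124704418 on the plus strand (ENSMUSG00000004270). It was at 76.2, 74.6 and 76.8 CPM in LPS, 84.6, 80.3 and 74.4 CPM in LPS + M2-Exo, 67.7, 67.5 and 67.5 CPM in Hyp, and 62.9, 62.4 and 64.3 CPM in Hyp + M2-Exo. The 3 Hyp + M2-Exo libraries lay below the 3 Hyp libraries. Lpcat3 was the 1 of 9 members whose groups did not overlap there, a pattern shown by 16% of all genes. The log2 fold change was -0.10 (SE 0.042, 95% interval -0.20 to -0.0049, adjusted p = 0.578) and did not pass, and in LPS + M2-Exo against LPS it was 0.072 (95% interval -0.054 to 0.20, adjusted p = 0.688). Lpcat3 was lower in Hyp than in LPS by -0.17 (SE 0.037, adjusted p = 0.00392) and by -0.34 with M2-Exo (SE 0.059, adjusted p = 0.00100). The call without M2-Exo is lost when libraries are scaled by total count alone (-0.077, adjusted p = 0.0878, the largest among its alternatives, the smallest being 0.00377). Lpcat3 overlaps Emg1 on the opposite strand, and 8.39% of its 50-base stretches match Emg1 transcripts, whose gene holds 21239 counts over all libraries. Among Lpcat1 to Lpcat4, Lpcat3 made up 31.6% ± 3.26 of the FPKM sum in LPS and 34.5% ± 0.613 in Hyp (SD, n = 3), and 40.8% and 43.5% on merged exons.

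The neighbours of these genes in fatty acid handling mostly differed between Hyp and LPS, as did 75.8% of all genes. Of the 3 tested genes of polyunsaturated fatty acid synthesis, all 3 were lower in Hyp than in LPS: the desaturases Fads2 (log2 fold change -0.94, SE 0.042) and Fads1 (-0.52, SE 0.029) and the elongase Elovl5 (-0.31, SE 0.032), with adjusted p of 4.29e-07, 1.30e-06 and 4.70e-05 by edgeR. Of the 8 tested genes of fatty acid activation and transport, 5 were lower, among them the fatty acid binding protein Fabp5 (-3.84), the transporter Slc27a1 (-1.23) and the scavenger receptor Cd36 (-0.72), and 3 were higher. Of the 5 other lysophospholipid acyltransferases, 4 were lower, and the 3 with the smallest p were Agpat3 (-0.62), Lpcat2 (-3.17) and Mboat7 (-0.23). The stearoyl-CoA desaturase Scd2, which makes monounsaturated fatty acids, was lower (-2.05, SE 0.036), and Mboat1, which inserts them into phospholipids, was higher (0.20, SE 0.060), while the other 2 genes of that list did not pass. Both phospholipases A2 that release oxidised or polyunsaturated chains, Pla2g6 (-0.60) and Pla2g4a (-0.24), were lower. Of 6 ether lipid genes tested, 2 were higher, Agps (0.34) and Pex3 (0.51), and 1 was lower, Far1 (-0.20). With M2-Exo present in both models, Pla2g4a (-0.17, adjusted p = 0.122 by edgeR), Cd36 (-0.37, adjusted p = 0.0917) and Mboat7 (-0.10, adjusted p = 0.235) did not pass. The other genes named in this paragraph passed there in the same direction.

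Por, the P450 oxidoreductase, lies at chr5:135670033-135735326 on the plus strand (ENSMUSG00000005514). It was at 102, 112 and 123 CPM in LPS, 112, 103 and 117 CPM in LPS + M2-Exo, 121, 126 and 117 CPM in Hyp, and 119, 114 and 128 CPM in Hyp + M2-Exo. All groups overlapped. The log2 fold change with M2-Exo was -0.021 in the Hyp libraries (95% interval -0.14 to 0.10, adjusted p = 0.918) and -0.022 in the LPS libraries (95% interval -0.20 to 0.16, adjusted p = 0.950). Hyp against LPS gave 0.11 (SE 0.070, adjusted p = 0.171), and ran from 0.041 (adjusted p = 0.539) without LPS replicate 1 to 0.18 (adjusted p = 0.0237), which passes, without LPS replicate 3.

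Cyb5r1, an NADH-dependent cytochrome b5 reductase at chr1:134405559-134411740 on the plus strand (ENSMUSG00000026456), had the largest difference of the members between Hyp and LPS. It was at 43.4, 49.9 and 41.4 CPM in LPS and 94.5, 89.9 and 94.6 CPM in Hyp, and at 46.4, 42.7 and 47.4 CPM in LPS + M2-Exo and 89.4, 77.6 and 101 CPM in Hyp + M2-Exo. No library of a Hyp group came near one of an LPS group. Hyp against LPS gave a log2 fold change of 1.05 (SE 0.071, 95% interval 0.89 to 1.21, adjusted p = 3.60e-06), a 2.07-fold difference. Where M2-Exo was present in both models, the value was 0.97 (SE 0.099, adjusted p = 3.87e-05). With M2-Exo the log2 fold change was -0.061 in the Hyp libraries (95% interval -0.27 to 0.14, adjusted p = 0.852) and 0.019 in the LPS libraries (95% interval -0.17 to 0.21, adjusted p = 0.960).

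The other genes of microsomal electron transfer went in both directions. Of all genes, 37.8% passed as lower in Hyp than in LPS and 38% as higher. Of 4 tested, 3 were lower in Hyp, among them Cyb5a (log2 fold change -1.10, SE 0.093) and Cyb5r3 (-0.58, SE 0.045). The other 1, Cyb5r4, was higher (0.38, SE 0.056). Of 3 NADPH oxidase genes tested, the phagocyte subunits Cybb (-4.19, SE 0.097) and Cyba (-0.76, SE 0.063) were lower and Duox1 was higher (1.11, SE 0.073), and Nox3 had no count in any library. Cybb is itself a gene of phagocytes, and its range of 142 to 166 CPM in LPS and 7.58 to 9.59 CPM in Hyp stands beside that of the macrophage markers.

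Alox5, at chr6:116410077-116461178 on the minus strand (ENSMUSG00000025701), was at or near 0 in every library. It had 0, 0 and 1 counts in LPS, 1, 1 and 0 in LPS + M2-Exo, 0, 0 and 2 in Hyp, and 0, 1 and 2 in Hyp + M2-Exo, 8 counts in all. It was therefore filtered out of every test, a difference between groups was not detectable at this depth, and no fold change is given. A count of 0 leaves room for up to 3 counts in a library. Alox12b and Alox12e had no count in any library, and Alox12, Alox8 and Alox15 had at most 5 counts in any library. Aloxe3, an epidermal-type lipoxygenase, was the exception, with 62 to 74 counts in LPS, 30 to 44 in LPS + M2-Exo, 589 to 654 in Hyp and 610 to 728 in Hyp + M2-Exo, and it was higher in Hyp than in LPS by a log2 fold change of 2.81 (SE 0.080, adjusted p = 5.91e-08). Alox5ap, the partner protein of 5-lipoxygenase, was at 169 to 199 counts in LPS, 107 to 116 in LPS + M2-Exo, 72 to 100 in Hyp and 47 to 82 in Hyp + M2-Exo, and was lower in Hyp than in LPS by -1.53 (SE 0.136, adjusted p = 1.89e-05). In mean CPM, Alox5ap was at 10.1 in LPS, 6.70 in LPS + M2-Exo, 3.49 in Hyp and 3.02 in Hyp + M2-Exo. The medians of the summed macrophage markers ran in the same order, but Hyp and Hyp + M2-Exo overlapped in both. A link between Alox5ap and these markers was not tested.

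Pebp1 lies at chr5:117282654-117287625 on the minus strand (ENSMUSG00000032959). It was at 111, 117 and 116 CPM in LPS, 121, 122 and 122 CPM in LPS + M2-Exo, 101, 98.5 and 101 CPM in Hyp, and 109, 96.8 and 99.1 CPM in Hyp + M2-Exo. The LPS + M2-Exo libraries all lay above the LPS libraries. Between these groups 3 of 9 members did not overlap (Acsl3, Acsl4 and Pebp1), against 17.2% of all genes. The log2 fold change of 0.090 (95% interval 0.0044 to 0.18, adjusted p = 0.430) did not pass, and in Hyp + M2-Exo against Hyp it was 0.015 (adjusted p = 0.937). Pebp1 was lower in Hyp than in LPS by -0.19 (SE 0.036, adjusted p = 0.00153) and by -0.26 with M2-Exo (SE 0.051, adjusted p = 0.00171). Of its 50-base stretches, 22.1% also occur in Gm10819 or Gm9824, so its counts depend on how the authors treated reads that fit several genes. Per length, Pebp1 had the second highest FPKM of the members, 36.8 to 41.9 as group means beside 49.5 to 51.3 for Acsl5, but the highest RPKM on merged exons, 58.5 to 66.6 beside at most 33.2 for Acsl5. Por followed in the third place on both scales, and Acsl1 and Alox5 were the lowest on both.

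Sat1, at chrX:155213132-155216449 on the minus strand (ENSMUSG00000025283), was the other gene higher in Hyp. It was at 38.6, 34.8 and 33.4 CPM in LPS and 66.5, 66.4 and 69.6 CPM in Hyp, and at 30.0, 33.9 and 26.5 CPM in LPS + M2-Exo and 75.2, 71.0 and 66.1 CPM in Hyp + M2-Exo. The Hyp groups did not overlap with the LPS groups, while each M2-Exo group overlapped with its own model. Hyp against LPS gave a log2 fold change of 0.92 (SE 0.061, 95% interval 0.78 to 1.06, adjusted p = 3.26e-06), a 1.90-fold difference, and 1.23 with M2-Exo (SE 0.095, adjusted p = 7.92e-06). With M2-Exo the log2 fold change was -0.24 in the LPS libraries (SE 0.099, 95% interval -0.47 to -0.015, adjusted p = 0.422) and 0.063 in the Hyp libraries (SE 0.056, 95% interval -0.067 to 0.19, adjusted p = 0.750). Of its 50-base stretches, 2.72% also occur in Gm46610 or Gm5552.

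Polyamine genes around Sat1 differed in both directions between Hyp and LPS, 6 of 9 passing against 75.8% of all genes. Of these, 3 were higher in Hyp than in LPS, the ornithine decarboxylase Odc1 (log2 fold change 1.28, SE 0.057), the spermidine synthase Srm (1.08, SE 0.064) and the antizyme inhibitor Azin1 (1.04, SE 0.109), with adjusted p of 4.17e-07, 1.80e-06 and 4.99e-05 by edgeR. Another 3 were lower and 3 did not pass. The median log2 fold change of the list was -0.021 against 0.0091 over all genes tested. With M2-Exo present in both models, 4 were higher and 2 lower.

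The promoters of the 4 members that differed most between Hyp and LPS are shown, the pair that was higher in Hyp followed by the pair that was lower. Each is the 250 bases before the RefSeq start of the gene (GRCm38.p6), written 5′ to 3′ on the strand of the gene, at chr1:134405531-134405780 (plus) for Cyb5r1, chrX:155216450-155216699 (minus) for Sat1, chr1:78657575-78657824 (plus) for Acsl3 and chrX:142390536-142390785 (minus) for Acsl4. Capitals mark the GC box GGGCGG and the CCAAT box CCAAT, searched on both strands, and the 2 matches in Acsl4 overlap. Most of the Cyb5r1 window lies inside the span of the gene in the table, which begins upstream of the RefSeq start.
Cyb5r1: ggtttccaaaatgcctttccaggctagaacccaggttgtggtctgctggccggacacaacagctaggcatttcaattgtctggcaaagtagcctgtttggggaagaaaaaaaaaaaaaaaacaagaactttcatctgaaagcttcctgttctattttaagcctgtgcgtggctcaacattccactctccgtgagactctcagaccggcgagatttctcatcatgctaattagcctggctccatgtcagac
Sat1: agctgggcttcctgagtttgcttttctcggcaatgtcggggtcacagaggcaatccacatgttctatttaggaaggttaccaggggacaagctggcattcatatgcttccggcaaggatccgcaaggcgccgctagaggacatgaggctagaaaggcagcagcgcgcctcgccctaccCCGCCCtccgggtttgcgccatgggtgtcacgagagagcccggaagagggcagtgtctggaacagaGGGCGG
Acsl3: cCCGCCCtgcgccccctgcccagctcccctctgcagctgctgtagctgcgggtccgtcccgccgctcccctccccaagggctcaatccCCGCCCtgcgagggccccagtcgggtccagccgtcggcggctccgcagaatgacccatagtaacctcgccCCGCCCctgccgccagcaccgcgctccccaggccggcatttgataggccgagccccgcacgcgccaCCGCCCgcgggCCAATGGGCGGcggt
Acsl4: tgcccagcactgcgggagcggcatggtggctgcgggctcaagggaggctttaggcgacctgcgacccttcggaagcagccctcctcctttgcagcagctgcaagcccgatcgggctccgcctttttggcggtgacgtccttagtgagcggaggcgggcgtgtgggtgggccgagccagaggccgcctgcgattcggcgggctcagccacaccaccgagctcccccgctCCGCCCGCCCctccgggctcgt
The higher pair does not share the marked motifs, since Cyb5r1 has no match and Sat1 has 2 GC boxes, while Acsl3 has 5 GC boxes and 1 CCAAT box and Acsl4 has 2 GC boxes. Over all 11 promoters of the 10 genes, 8 hold a GC box and 5 a CCAAT box, against 32.7% and 33.8% of 32851 promoters of the same length. Of the 250 bases, 46% are G or C in Cyb5r1, 59.6% in Sat1, 75.6% in Acsl3 and 70.8% in Acsl4, with a median of 52.4% over all promoters. The antioxidant response element TGACNNNGC was in 0 of the 11 and in 10.2% of all, and the sterol regulatory element TCACNCCAC was in 1 of the 11, for Acsl1, and in 1.05% of all. A match describes the letters in this window and not a site in use.

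**Figure D4:**
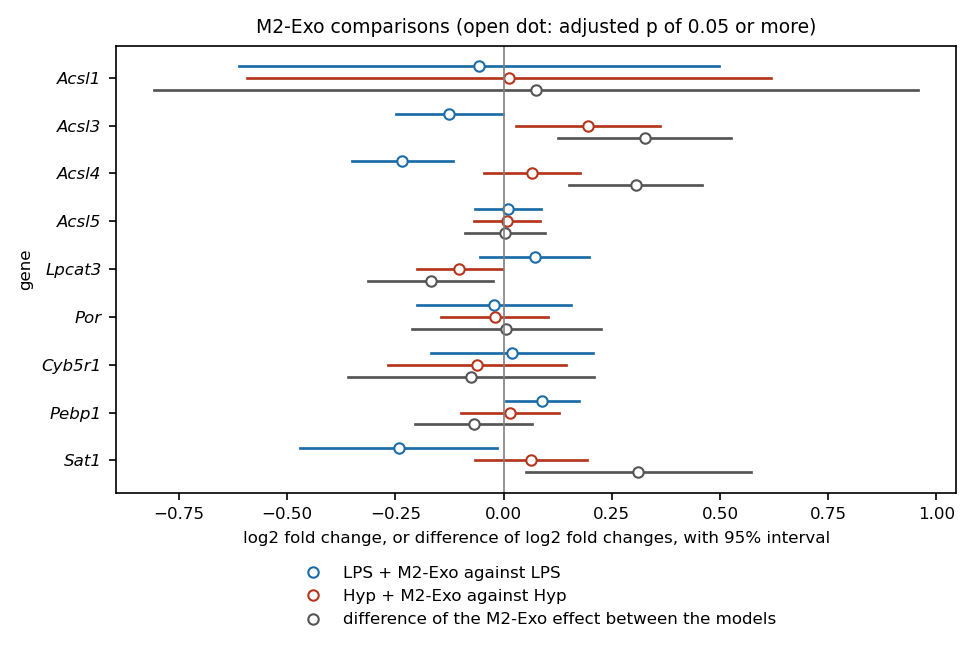
Log2 fold changes of the 9 tested genes (y axis) in LPS + M2-Exo against LPS and Hyp + M2-Exo against Hyp, and the difference of these effects between the models, Hyp minus LPS (x axis, dot with its 95% interval). All dots are open because no adjusted p was under 0.05 by edgeR, and Acsl1, Acsl3, Acsl4 and Sat1 lie below 0 in the LPS libraries and above 0 in the Hyp libraries.

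Whether M2-Exo acted differently on these genes in the models was tested directly, as an interaction over all 12 libraries. By edgeR 0 of 9 members passed, against 0.0352% of 14187 genes, and by DESeq2 1 did. At an unadjusted p under 0.05 there were 4 (Acsl3, Acsl4, Lpcat3 and Sat1), with 9.78% of all genes. The effect on Acsl4 was higher in the Hyp libraries than in the LPS libraries by 0.31 on the log2 scale (SE 0.070, 95% interval 0.15 to 0.46, adjusted p = 0.243), and this is the gene that passed by DESeq2 (0.31, adjusted p = 0.0394, the smallest of the alternatives, which reached 0.453 without Hyp replicate 3). The differences were 0.33 for Acsl3 (adjusted p = 0.295), 0.31 for Sat1 (adjusted p = 0.432) and -0.17 for Lpcat3 (adjusted p = 0.444). For Acsl5 the interval of the difference was -0.089 to 0.097 and for Por -0.21 to 0.23.

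No gene of the wider pathway passed with M2-Exo by edgeR in either model. Of the 62 genes in 10 lists of lipid peroxidation and its surroundings, 46 could be tested in Hyp + M2-Exo against Hyp and 45 in LPS + M2-Exo against LPS, and 0 passed in each by edgeR. At an unadjusted p under 0.05 there were 5 of 46, against 8.48% of all genes, and 12 of 45, against 11.1%. By DESeq2 0 passed in the Hyp libraries and 1 in the LPS libraries, Cybb, whose log2 fold change by edgeR was -0.42 (SE 0.070, adjusted p = 0.110). In the difference between the models, 0 of 46 passed by edgeR, with 8 at an unadjusted p under 0.05 (9.78% of all genes), and 1 passed by DESeq2, Aloxe3, with 0.88 by edgeR (SE 0.191, adjusted p = 0.213).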

How the data were processed

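RNA was measured in 12 libraries of MLE-12 cells. The authors mapped reads with HISAT2 2.0.4 to GRCm38 and, per the processing notes, used StringTie 1.3.0 and edgeR. The authors deposited raw read counts and FPKM side by side for 34745 genes, and 0 columns per library were left unused. How reads shared between genes or strands were counted is not given in the sources used here. The deposited FPKM used gene lengths equal, within 1 base, to the sum of all distinct annotated exons for 10274 of 14997 genes (68.5%) in GENCODE M21, among them every member but Acsl1 and Acsl5. For Cyb5r1 and Sat1 that length (7125 and 4895 bases) exceeds the gene itself (6182 and 3318 bases), so RPKM on merged exons were computed as well.

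The tests on these counts used edgeR 4.0.16 (R 4.3.3). After filterByExpr (minimum count 10) and TMM scaling, edgeR's quasi-likelihood test was run on the 6 libraries of each comparison, or on all 12 for the interaction, with Benjamini-Hochberg adjustment over all genes tested. TMM factors lay between 0.960 and 1.036 and the biological coefficient of variation was 8.8% to 9.4%. Intervals are 95% intervals of the fit and cover the spread between these libraries. The alternatives were RLE normalization, library size alone, no filter, DESeq2 1.42.0, all 12 libraries in a fit, a block for the replicate number, and each library left out in turn.

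The members and lists were chosen with earlier results of these data known. All 10 members are named. From each list the genes past the threshold in Hyp against LPS are named, at most 3 with the smallest p. Listed genes with no count in any library, and genes with counts that overlap a member, are named too. Acsl6, Lpcat1 and Lpcat4 (as family totals), Alox12, Alox8 and Alox15, the named cell type markers, the genes that share sequence with a member, and Cybb and Aloxe3 in the DESeq2 counts were named after their values were seen. Promoters came from RefSeq, which held 11 for the 10 genes.

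Same-numbered libraries deviated together weakly or not at all (correlations of -0.015 to 0.063), so the numbers were not taken to pair them. In Hyp against LPS these correlations were 0.040, 0.012 and 0.046, above the largest between libraries of different numbers (-0.00064).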

Additional observations from a re-analysis of the deposited data

How the results depend on the processing

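The 6 calls in Hyp against LPS and the 6 in Hyp + M2-Exo against LPS + M2-Exo held in each fit that left out 1 library, and of the other alternatives only library size alone changed one (Lpcat3 in Hyp against LPS). Library size alone shifted the median of all genes to 0.099 in both comparisons, turned Acsl5 to 0.046 and 0.050, and made Por pass (0.20 and 0.21, adjusted p = 0.0218 and 0.0169). The replicate block turned Acsl1 in Hyp + M2-Exo against Hyp to -0.016 and made Por pass in Hyp + M2-Exo against LPS + M2-Exo (0.12, adjusted p = 0.0369). It changed no other call of a member. DESeq2 called 1 member in the difference between the models. Over all genes, calls in Hyp + M2-Exo against Hyp, LPS + M2-Exo against LPS and the difference were 14, 25 and 5 by edgeR, 37, 125 and 67 by DESeq2, and 8, 6 and 3 with the replicate block. With all 12 libraries in 1 fit the M2-Exo comparisons gave 2 and 12, and with no filter the difference gave 13. Leaving out 1 library gave 12 to 21, 21 to 39 and 4 to 34 calls, the 39 where replicate 1 of LPS was dropped and the 34 where replicate 1 of Hyp + M2-Exo was. The cause of these shifts was not tested.

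Leaving out 1 library turned the sign of these log2 fold changes, none of which passed the test. In Hyp + M2-Exo against Hyp the ranges were -0.33 to 0.25 for Acsl1, -0.0069 to 0.026 for Acsl5, -0.034 to 0.047 for Pebp1, -0.069 to 0.017 for Por and -0.16 to 0.031 for Cyb5r1. In LPS + M2-Exo against LPS they were -0.26 to 0.15 for Acsl1, -0.090 to 0.047 for Por, -0.0067 to 0.016 for Acsl5 and -0.039 to 0.099 for Cyb5r1. Acsl1 ran from -0.010 to 0.33 in Hyp against LPS and from -0.046 to 0.48 in Hyp + M2-Exo against LPS + M2-Exo, the lowest coming where replicate 1 of Hyp or of Hyp + M2-Exo was dropped. In the difference between the models they were -0.27 to 0.31 for Acsl1, -0.011 to 0.021 for Acsl5, -0.068 to 0.076 for Por and -0.17 to 0.019 for Cyb5r1. Without a turn of sign, but by over 1.5 times, leaving out 1 library moved Acsl3 (-0.17 to -0.081), Lpcat3 (0.025 to 0.12) and Sat1 (-0.34 to -0.16, the latter when its treated replicate 3 was dropped) in LPS + M2-Exo against LPS, Acsl4 (0.039 to 0.097) and Sat1 (0.020, without Hyp + M2-Exo replicate 1, to 0.11) in Hyp + M2-Exo against Hyp, Por (0.041 to 0.18) and Acsl5 (-0.057 to -0.023) in Hyp against LPS, Por (0.063 to 0.17) and Acsl5 (-0.054 to -0.025) in Hyp + M2-Exo against LPS + M2-Exo, and Pebp1 in the difference (-0.12 to -0.035). Alox5 is limited by depth and Acsl1 by the spread between libraries.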
